A study of Sus scrofa with 6 samples.

Results

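The transcripts of the Hippo effectors, of the TEAD DNA-binding factors and of their VGLL cofactors were compared in porcine satellite cells (PSCs), the stem cells of skeletal muscle, between an early and a later time of differentiation. The members were the rows of the table whose pig Ensembl identifier carries one of 10 symbols (YAP1, WWTR1, TEAD1, TEAD2, TEAD3, TEAD4, VGLL2, VGLL3, VGLL4 and LATS2), of 28266 rows in all. Values were found for 7 of them, WWTR1, TEAD1 to TEAD4, VGLL2 and VGLL4. YAP1, VGLL3 and LATS2 were not analysed here. The cells came from limb muscle of newborn Yorkshire pigs and were differentiated on horse serum, and the titles of the libraries begin with N. The study names its groups with negative control siRNA NC, and the labels themselves state no siRNA. There were 3 libraries at 24 h and 3 at the later time, both numbered 4, 5 and 6. For the later group the sample labels name 48 h, but the series title and the study name 36 h, which is used here. Both groups share the breed and cell type, and the time of differentiation is the difference the labels name. No source used here says that the libraries of a group came from separate pigs, so the p-values measure the spread between these libraries.

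YAP1 and WWTR1 (whose protein is named TAZ) are coactivators that hold no DNA-binding domain and reach the genome mainly through the TEAD factors. In the Hippo pathway the MST kinases (STK3 and STK4), with the scaffold SAV1, activate the LATS kinases, and these phosphorylate YAP and TAZ and keep them out of the nucleus. VGLL proteins bind the TEAD factors at a surface that overlaps the one used by YAP and TAZ. In muscle, TEAD factors bind the MCAT element of many promoters of contractile genes, VGLL2 is a cofactor known from skeletal muscle, and VGLL4 is known as a competitor of YAP.

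FPKM is the number of fragments of a gene per unit of its length and of the counted fragments of the library. It allows for gene length and depth, but not for a shift in the composition of a library. Results under another scaling are therefore also given below. The whole fragments behind the FPKM values could be recovered, and they summed to 16250222 in the shallowest library and 21723087 in the deepest. A member had at least 223 fragments in any library, a counting error of at most 6.70%. All 7 members had a mean FPKM of at least 1, the minimum for testing, and 14060 genes of the table passed it. The cells expressed the muscle markers, 6 of 8 of which were measured, while PAX7 and CKM were not analysed here. Their sums were 2351 to 3033 FPKM at 24 h and 4674 to 5094 FPKM at 36 h, mostly from DES and MYMK. The means of DES, MYMK, MYF6 and CDH15 were higher at 36 h. Those of MYF5 (84.7 to 59.9 FPKM) and MYOD1 (316 to 254 FPKM) were lower, so the sum does not describe every marker. The extraction protocol in the labels names another tissue, the endometrium. Of its markers, 7 of 7 were measured, and their sum was 16.4 to 18.7 FPKM at 24 h and 17.3 to 18.5 FPKM at 36 h, mostly from HOXA10. PGR and KRT8 were at 0, and EPCAM, KRT18 and ESR1 stayed under 1 FPKM in every library. Of the genes listed as fibroblast markers, 6 of 8 were measured. Their sums were 954 to 1031 FPKM at 24 h and 847 to 1057 FPKM at 36 h, mostly from COL1A2 and COL3A1. The endothelial sum (3 of 4 measured, KDR at 0) was at most 1.67 FPKM, the adipocyte sum (2 of 4) at most 3.05 FPKM and the leukocyte sum (4 of 4, PTPRC at 0) at most 2.60 FPKM. In bulk RNA, fewer cells of a type and less RNA per cell cannot be told apart.

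A pair of libraries stood apart within their groups. At 24 h, replicate 6 was the least advanced in differentiation, with MYMK, the fusion protein myomaker, at 210 FPKM against 702 and 549 FPKM in replicates 4 and 5, and with TOP2A, a gene of cycling cells, at 36.4 against 12.7 and 18.3 FPKM. At 36 h, replicate 6 had far more transcripts of immediate-early genes, with FOS at 228 FPKM against 7.47 and 9.27 FPKM and EGR1 at 569 FPKM against 47.8 and 64.6 FPKM. This last list was chosen after the values were seen. Several results that rest on these libraries are also given without them, or as the range with each library left out in turn.

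Of the 7 members, 4 rose between 24 h and 36 h (WWTR1, TEAD4, VGLL2 and VGLL4) and 1 fell (TEAD3), by limma on log2(FPKM + 1) with Benjamini-Hochberg adjustment over all genes and a threshold of 0.05. TEAD1 and TEAD2 did not pass. Over all genes tested, 50.9% passed this threshold, 16.5% as higher and 34.4% as lower at 36 h. The libraries of both times did not overlap for 6 of the 7 members, with WWTR1, TEAD2, TEAD4, VGLL2 and VGLL4 higher and TEAD3 lower. Over all genes tested this held for 63.6%, 21.0% as higher and 42.6% as lower. The median change of all genes was -0.16 on the log2 scale, and it was -0.004 under median-ratio scaling, which centres the libraries on a typical gene. That scaling moved the share of higher genes among the calls from 32.4% to 51.9%. The changes below can be read against -0.16. Under median-ratio scaling 5 members were called, all higher, TEAD2 taking the place of TEAD3. Of the 14036 genes tested under that scaling, 3371 were called higher and 3123 lower.

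**Figure D1:**
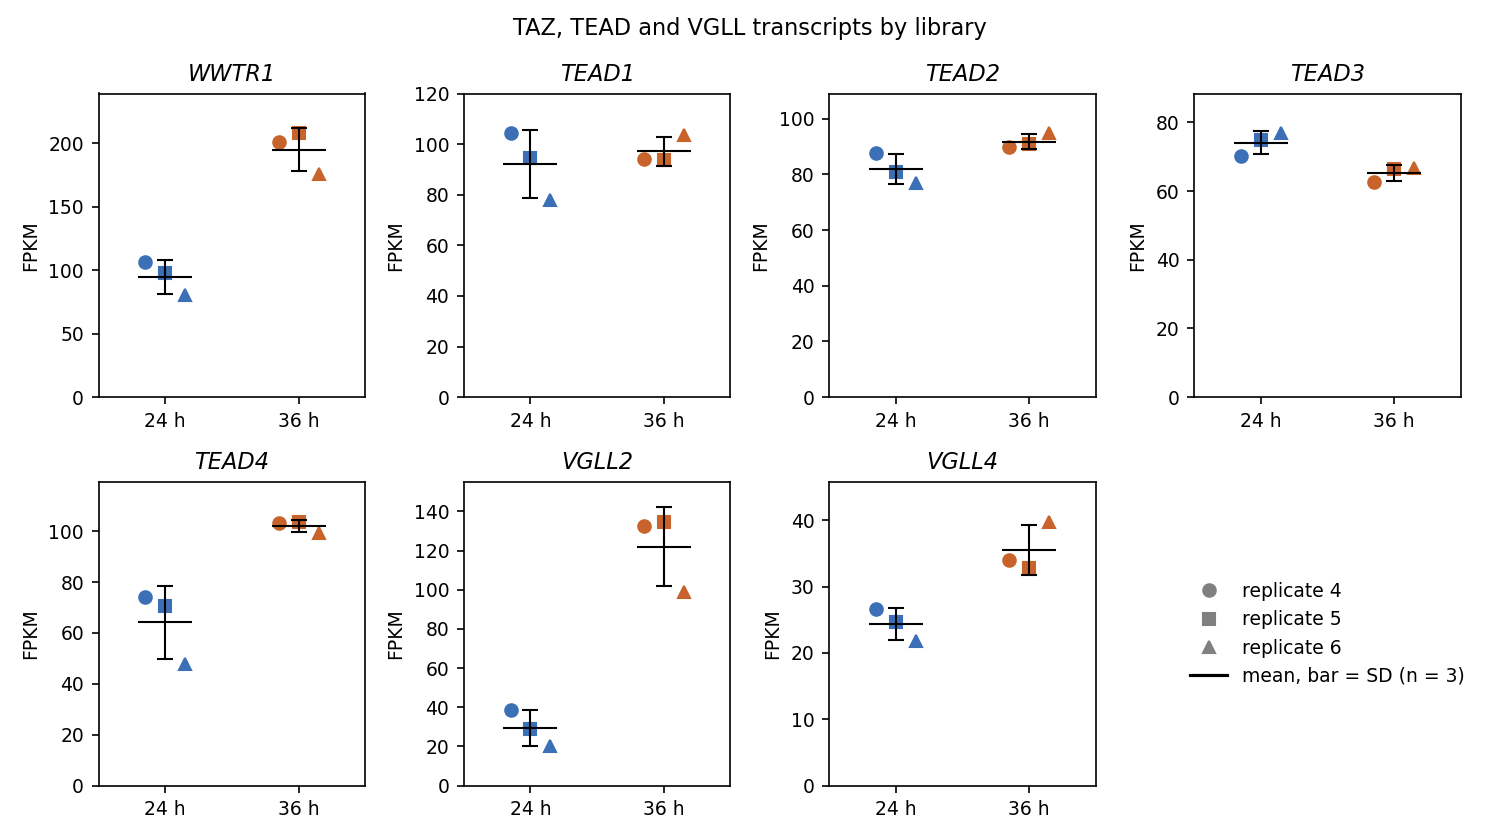
FPKM (vertical axes, each from 0) of the 7 members in the 3 libraries at 24 h (blue) and the 3 at 36 h (orange). Point shapes give the replicate number, horizontal lines the mean and bars the SD. The groups are apart for every member but TEAD1, by the widest factor for VGLL2 and by a narrow gap for TEAD2 and TEAD3.

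WWTR1 (ENSSSCG00000011704), the gene of the coactivator TAZ, is annotated by RefSeq on Sscrofa11.1 at chromosome 13, 89742980 to 89889547. Its FPKM was 107, 97.7 and 80.1 in replicates 4, 5 and 6 at 24 h, and 201, 208 and 176 at 36 h. All 3 later libraries lay above all earlier ones, and replicate 6 was the lowest of its group at both times. The mean rose 2.05-fold, from 94.8 ± 13.5 to 195 ± 17.0 FPKM (SD, n = 3 each), a log2 change of 1.04 (standard error, SE, 0.12, adjusted p = 0.00134 in limma). This was a larger rise than in 96.5% of the genes tested. WWTR1 was already at the 93.0 percentile of mean FPKM among the genes tested at 24 h, and it was at the 96.8 percentile at 36 h. Its call held in all 15 alternatives, with an adjusted p of at most 0.0106. Without replicate 6 of the 24 h group the log2 change was 0.92.

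The TEAD factors are the DNA-binding partners of YAP, TAZ and the VGLL proteins. All 4 genes were expressed at 24 h, with means from 64.1 FPKM (TEAD4) to 92.3 FPKM (TEAD1). TEAD4 (ENSSSCG00000000736; chromosome 5, 67130392 to 67167579), the TEAD gene best known as a target of myogenic factors, was the one that rose. Its FPKM was 74.2, 70.5 and 47.6 at 24 h and 103, 104 and 99.2 at 36 h. The later libraries were close to each other, whereas at 24 h replicate 6 was far under the other 2. The mean went from 64.1 ± 14.4 to 102 ± 2.47 FPKM (SD, n = 3 each), 1.59-fold, with a log2 change of 0.69 (SE 0.16, adjusted p = 0.0125 in limma). TEAD4 passed in all 15 alternatives, with an adjusted p between 0.00111 and 0.0463. Without replicate 6 at 24 h its log2 change was 0.49.

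TEAD1 (ENSSSCG00000013399; chromosome 2, 46396490 to 46670619), the factor first described as the binder of MCAT elements, had 104, 94.5 and 77.9 FPKM at 24 h and 94.0, 93.9 and 104 FPKM at 36 h. The groups overlapped. Its log2 change was 0.08, with a 95% confidence interval from -0.18 to 0.35 (limma adjusted p = 0.559). Without replicate 6 at 24 h the change was -0.032. TEAD1 was not called in any of the 15 alternatives.

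TEAD2 (ENSSSCG00000025568; chromosome 6, 54448183 to 54462325) is known for high levels in embryonic and precursor cells. It had 87.5, 80.8 and 76.9 FPKM at 24 h and 89.7, 90.8 and 94.8 FPKM at 36 h. The later libraries were all above the earlier ones, by a small gap. The log2 change was 0.17 (95% confidence interval 0.0062 to 0.33, limma adjusted p = 0.0766), and it passed in 2 of 15 alternatives, with median-ratio scaling (0.34, adjusted p = 0.0128) and without replicate 4 at 24 h (0.22, adjusted p = 0.0430).

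TEAD3 (ENSSSCG00000001544; chromosome 7, 31337890 to 31351452), a paralog best known from placenta, was the only TEAD gene with a negative change. Its FPKM was 70.4, 75.0 and 76.9 at 24 h and 62.6, 66.6 and 66.8 at 36 h, without overlap. The mean fell from 74.1 ± 3.36 to 65.3 ± 2.40 FPKM (SD, n = 3 each), a log2 change of -0.18 (SE 0.06, adjusted p = 0.0487 in limma). The change was almost the same as the median of all genes, -0.16, and TEAD3 was at the 47.9 percentile of all changes. After median-ratio scaling it was -0.01 (adjusted p = 0.937), and the call held in 7 of 15 alternatives. It was lost without any one of 5 libraries, with an adjusted p of 0.140 and 0.0758 without replicates 5 and 6 at 24 h and of 0.132, 0.109 and 0.0761 without replicates 4, 5 and 6 at 36 h.

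VGLL2 (ENSSSCG00000004255; chromosome 1, 44549407 to 44557793), also known as Vestigial-like 2 and a cofactor of TEAD factors in skeletal muscle, changed most among the members. Its FPKM was 38.6, 29.2 and 20.1 at 24 h and 133, 135 and 98.7 at 36 h. The lowest later library was above the highest earlier one by a wide margin, and replicate 6 was the lowest at both times. The mean rose 4.17-fold, from 29.3 ± 9.26 to 122 ± 20.3 FPKM (SD, n = 3 each). It rests on 1406 fragments at 24 h and 7214 at 36 h. The log2 change was 2.06 (SE 0.24, adjusted p = 0.00133 in limma), larger than in 99.4% of the genes tested and the 83rd largest rise. Its level went from the 76.8 percentile of the genes tested to the 94.4 percentile. The call held in all 15 alternatives, with log2 changes between 1.82 (without replicate 6 at 24 h) and 2.27 (without replicate 4 at 24 h).

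VGLL4 (ENSSSCG00000030581; chromosome 13, 67698082 to 67873119) encodes the VGLL protein with a pair of TEAD-binding motifs. It had 26.6, 24.7 and 21.8 FPKM at 24 h and 34.0, 32.8 and 39.8 FPKM at 36 h. The groups did not overlap, and the highest value was that of replicate 6 at 36 h. The mean rose 1.46-fold, from 24.4 ± 2.40 to 35.5 ± 3.73 FPKM (SD, n = 3 each), with a log2 change of 0.53 (SE 0.10, adjusted p = 0.00640 in limma). It passed in all 15 alternatives, with an adjusted p of at most 0.0231. It rests on the fewest fragments, 753 at 24 h and 1330 at 36 h.

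**Figure D2:**
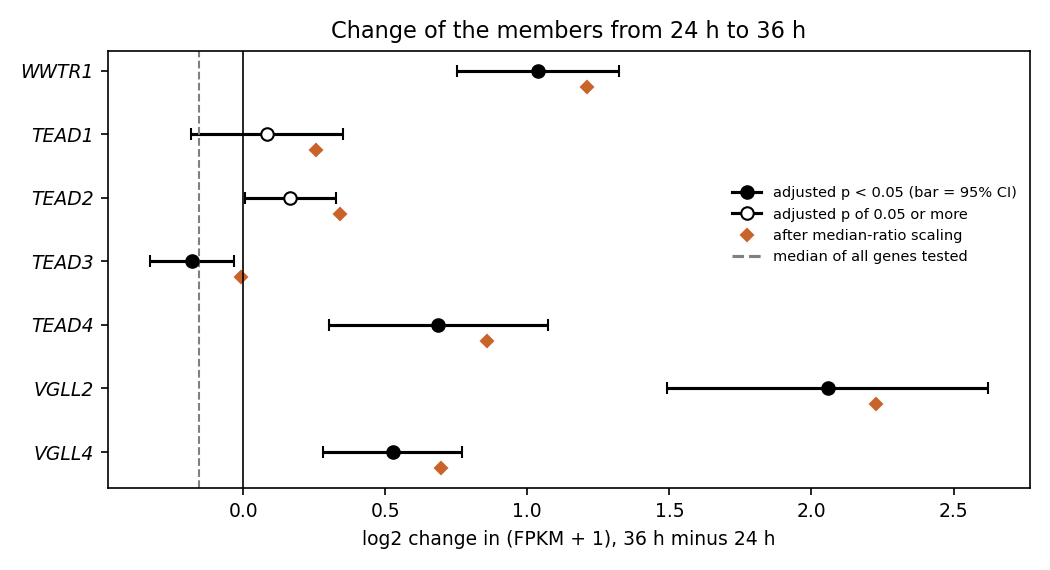
The log2 change of each member from 24 h to 36 h on the log2(FPKM + 1) scale, with its 95% confidence interval from limma. Filled circles passed the adjusted threshold, orange diamonds give the change after median-ratio scaling and the dashed line the median of all genes tested (-0.16). VGLL2, WWTR1, TEAD4 and VGLL4 lie right of 0 with either scaling, while TEAD3 moves from -0.18 to -0.01.

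Shares and ratios within a library do not depend on how the libraries are scaled to each other. With 3 libraries against 3, the exact permutation test cannot give a p under 0.1, so that these values carry no call at 0.05. At 24 h the mean shares of the TEAD genes ran from 20.4% (TEAD4) to 29.5% (TEAD1), and at 36 h from 18.3% (TEAD3) to 28.6% (TEAD4). TEAD4 held 22.1%, 22.0% and 17.1% of the summed TEAD FPKM in replicates 4, 5 and 6 at 24 h and 29.5%, 29.2% and 27.2% at 36 h. Its mean share was 8.28 percentage points larger at 36 h (exact permutation p = 0.1, two-sided, the smallest it can give), and the groups did not overlap. TEAD3 held 20.9%, 23.4% and 27.5% at 24 h and 17.9%, 18.8% and 18.3% at 36 h, also without overlap, a difference of -5.61 points (exact permutation p = 0.1, two-sided). TEAD4 thus went from the lowest mean share of the TEAD genes at 24 h to the highest at 36 h. The mean TEAD1 share at 36 h was 27.3% ± 1.06 (SD, n = 3) against 28.6% ± 1.26 for TEAD4. This order did not hold in every library. TEAD3 was under TEAD4 in replicate 4 at 24 h, and TEAD1 (28.5%) was above TEAD4 in replicate 6 at 36 h. The shares of TEAD1 and TEAD2 overlapped between the groups, with differences of -2.18 and -0.49 points (exact permutation p = 0.2 and 0.7, two-sided). The sum of the 4 TEAD genes was 337, 321 and 279 FPKM at 24 h and 349, 355 and 365 FPKM at 36 h.

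**Figure D3:**
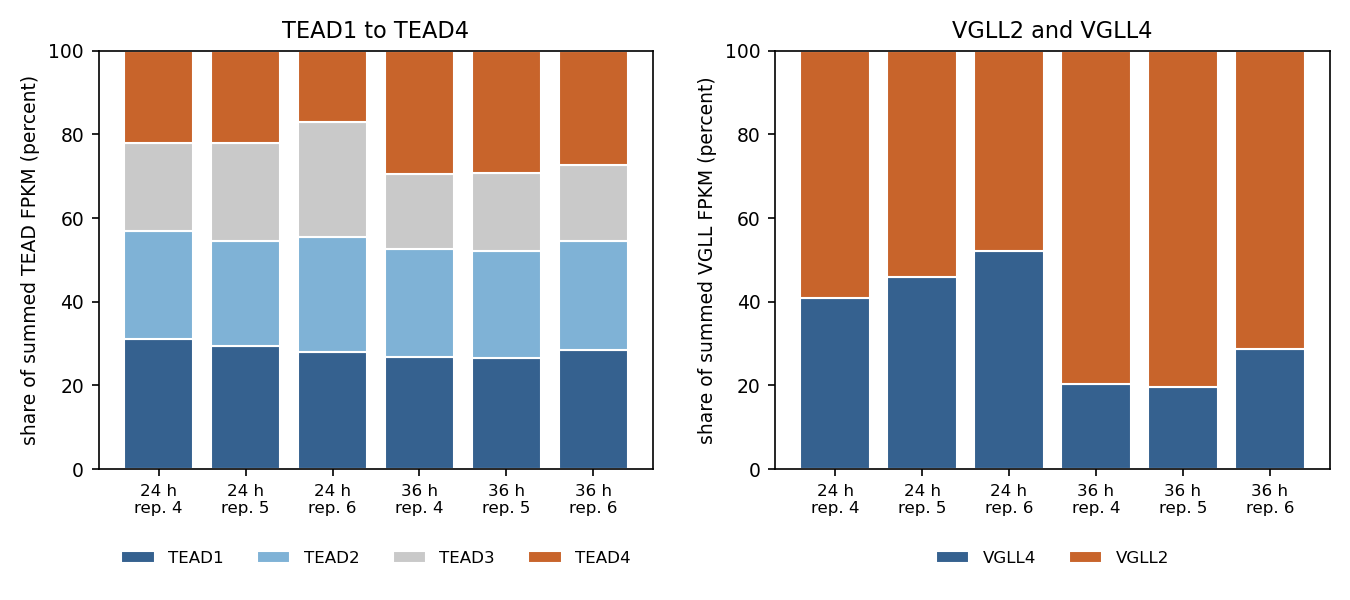
Left, the share of each TEAD gene in the summed FPKM of TEAD1 to TEAD4, in percent, for each library. Right, the shares of VGLL2 and VGLL4 in their sum. Replicate 6 at 24 h has the smallest TEAD4 share (17.1%) and the smallest VGLL2 share (47.9%), and VGLL2 holds over 71% of the VGLL sum in each 36 h library.

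VGLL2 made up 59.2%, 54.2% and 47.9% of the sum of VGLL2 and VGLL4 at 24 h and 79.6%, 80.4% and 71.3% at 36 h. The difference was 23.3 percentage points (exact permutation p = 0.1, two-sided) without overlap. Since VGLL3 was not analysed here, these are shares of the measured VGLL genes only.

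The coactivator and the muscle cofactor were next set against the summed TEAD FPKM, a comparison chosen after the values were seen. WWTR1 equalled 31.7%, 30.5% and 28.7% of the TEAD sum at 24 h and 57.5%, 58.6% and 48.1% at 36 h. VGLL2 equalled 11.5%, 9.09% and 7.18% at 24 h and 38.0%, 38.0% and 27.1% at 36 h. Neither overlapped between the groups (exact permutation p = 0.1 for each, two-sided). VGLL2 also rose against WWTR1, by 1.05 on the log2 scale of their ratio (exact permutation p = 0.1, two-sided). These are transcript ratios and say nothing of the amounts of protein.

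By mean FPKM, the order at 24 h was WWTR1, TEAD1, TEAD2, TEAD3, TEAD4, VGLL2 and VGLL4. The ranges of neighbours in that order overlapped everywhere except between TEAD4 and VGLL2. At 36 h the order was WWTR1, VGLL2, TEAD4, TEAD1, TEAD2, TEAD3 and VGLL4. WWTR1 stood above VGLL2 without overlap, the ranges from VGLL2 to TEAD2 ran into each other, and TEAD3 and VGLL4 were each set apart under them. VGLL2 moved from below every TEAD gene to a level within or above their range.

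The libraries at 24 h differed among themselves in several members. WWTR1, TEAD1, TEAD2, TEAD4, VGLL2 and VGLL4 were all lowest there in replicate 6, the uncalled TEAD1 and TEAD2 included, and TEAD3 was highest in it. In the same library the 4 measured differentiation genes (MYMK, DES, ACTN2 and MYBPH) had a mean log2(FPKM + 1) of 7.40 against 8.87 and 8.60 in replicates 4 and 5, and the 3 measured cycle genes (TOP2A, CCNB1 and CDK1) had 4.73 against 3.44 and 3.82. At 36 h the means were 9.86 to 10.13 and 1.51 to 1.88. Without this library WWTR1, TEAD4, VGLL2 and VGLL4 still passed. Its part in the sizes of the changes was not tested beyond the values without it.

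Of 30 genes listed as regulators that act before YAP and TAZ, 23 were measured and tested. At 36 h 12 of them were lower by the test over all genes, 2 were higher and 9 did not pass, where 34.4% of all genes tested were lower and 16.5% higher. Without replicate 5 at 36 h 8 passed, 7 lower and 1 higher, where 3316 of 14095 genes tested were lower and 1565 higher. The median change of the list was -0.32, against -0.16 for all genes tested. After median-ratio scaling 8 were lower and 4 higher, where 3123 of 14036 genes tested were lower and 3371 higher, with a median of -0.16 against -0.004. The list was chosen with earlier results of these data known. Among the kinases, LATS1, which phosphorylates YAP and TAZ, fell from 9.59 ± 0.729 to 6.31 ± 0.0867 FPKM (SD, n = 3 each), with 8.84, 9.63 and 10.3 FPKM at 24 h and 6.27, 6.25 and 6.41 FPKM at 36 h. Its log2 change was -0.53 (SE 0.08, adjusted p = 0.00266 in limma), and it passed in all 15 alternatives. The ratio of LATS2 to LATS1 and that of WWTR1 to YAP1 could not be formed.

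Other genes of the kinase cascade divided between falls and changes that did not pass. STK3, STK4, SAV1, MAP4K4 and NF2 are outside the rule for named genes and were chosen after their values were seen. STK4 and STK3, the MST kinases, changed by -0.48 and -0.32 (limma adjusted p = 0.00348 and 0.0126). The call of STK3 held in 12 of 15 alternatives. It was lost after median-ratio scaling (limma adjusted p = 0.145), with quantile normalization and without replicate 5 at 36 h. The scaffold SAV1 gave -0.37 and the kinase MAP4K4 -0.23, and neither passed (limma adjusted p = 0.0698 and 0.0944). MOB1B, the coactivator of LATS kinases, changed by -0.81 (limma adjusted p = 0.0194) from 4.28, 5.07 and 8.43 FPKM at 24 h to 2.53, 2.93 and 3.05 FPKM at 36 h. Its call was lost without replicate 4 or replicate 5 at 36 h (adjusted p = 0.0642 and 0.0567), and the change was -0.56 without replicate 6 at 24 h. The largest fall was that of FRMD6, a FERM-domain protein of the cell cortex, at -1.20 (SE 0.10, adjusted p = 0.000719 in limma), from 46.5, 47.3 and 51.8 FPKM to 18.5, 19.7 and 23.5 FPKM. AJUBA, a LIM protein that restrains LATS kinases, changed by -0.85 (limma adjusted p = 0.00423). WWC2, of the KIBRA family, changed by -0.63 and STRN, a subunit of the STRIPAK phosphatase complex that acts on the MST kinases, by -0.58 (limma adjusted p = 0.00199 and 0.00237). The members of this list that fell thus include both genes known to restrain YAP (LATS1, STK3, STK4, MOB1B, FRMD6) and genes known to oppose the kinases (AJUBA, STRN).

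Higher at 36 h were AMOTL1, an angiomotin that binds YAP and TAZ, with a log2 change of 0.33 (limma adjusted p = 0.00555), and RASSF1, an activator of the MST kinases, with 0.27 (limma adjusted p = 0.0452). The call of AMOTL1 held in all 15 alternatives and that of RASSF1 in 8. RASSF1 was lost in 4 of the 6 fits that each left out a library, without replicates 4 and 6 at 24 h (adjusted p = 0.116 and 0.0663) and without replicates 4 and 5 at 36 h (0.132 and 0.114). NF2, the merlin protein, gave a change of 0.08 and did not pass (limma adjusted p = 0.486).

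**Figure D4:**
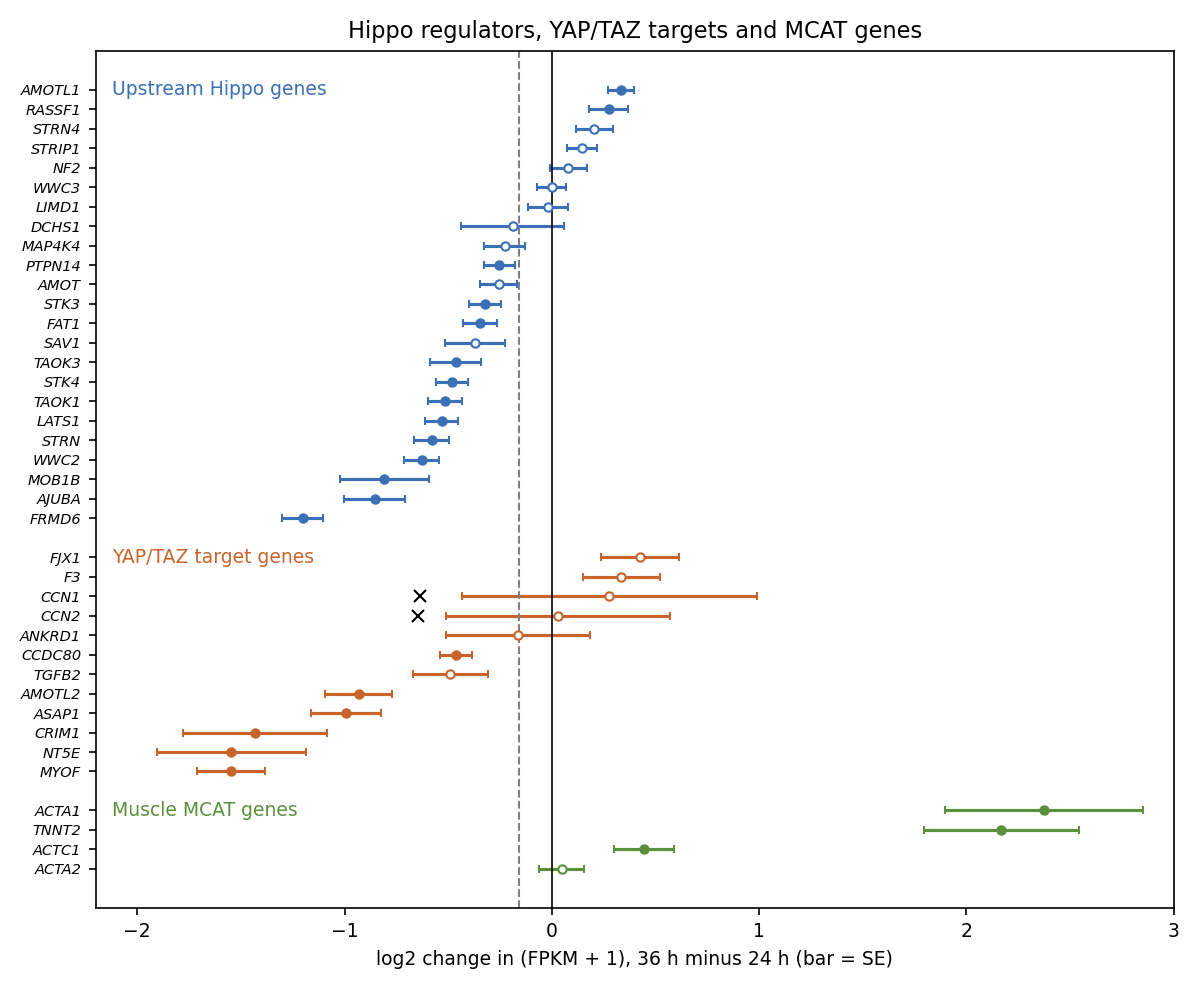
The log2 change from 24 h to 36 h of each tested gene of the 3 lists, with its standard error, on the log2(FPKM + 1) scale. Filled points passed the adjusted threshold, the dashed line is the median of all genes tested (-0.16) and the crosses give CCN1 and CCN2 without replicate 6 at 36 h. Most upstream regulators and targets lie left of the line, and of the MCAT genes TNNT2, ACTA1 and ACTC1 passed, right of 0.

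Genes that serve in other cells as a readout of YAP and TAZ were mostly lower or did not pass. Of 20 listed, 13 were measured and 12 tested, since DOCK5 was under the minimum. By limma, adjusted over all genes, 6 were lower at 36 h, 0 were higher and 6 did not pass (7 had an unadjusted p under 0.05, in either direction). The 6 include NT5E, which met the minimum only through its level at 24 h. Over all genes, 34.4% were lower and 16.5% higher. The median change of the 12 was -0.48, against -0.16 for all genes. Limma voom on the whole fragments gave 0 higher as well. Median-ratio scaling gave 6 lower and 1 higher (FJX1), where 3123 of 14036 genes tested were lower and 3371 higher. Some of these targets are also matrix or fibroblast genes, and the fibroblast markers DCN and LUM changed by -1.48 and -1.19 between the same libraries (limma adjusted p = 0.000640 and 0.00149), as did COL1A2 by -0.62 (limma adjusted p = 0.00365), whereas COL3A1 changed by 0.88 (limma adjusted p = 0.00446). TCF4, on the fibroblast list by its symbol but not specific to fibroblasts, gave -0.075 and did not pass (limma adjusted p = 0.574). PDGFRA was under 1 FPKM in every library. The summed level of the 6 measured genes of the fibroblast list was 954 to 1031 FPKM at 24 h and 847 to 1057 FPKM at 36 h. Their part in the result was not tested.

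MYOF, a ferlin of the muscle cell membrane, fell in every alternative. It went from 40.9, 46.0 and 63.9 FPKM at 24 h to 15.1, 15.7 and 18.0 FPKM at 36 h, a log2 change of -1.55 (SE 0.16, adjusted p = 0.00114 in limma). NT5E, an ecto-nucleotidase, and CRIM1, a transmembrane protein that binds growth factors, changed by -1.55 and -1.43 (limma adjusted p = 0.0119 and 0.0139). NT5E is low, with a mean of 4.76 FPKM at 24 h and 0.823 FPKM at 36 h, the latter under the minimum for testing. With a pseudocount of 0.01 its change was -2.41, against -1.60 for MYOF. NT5E and CRIM1 were far higher in replicate 6 at 24 h than in the other early libraries, at 8.26 and 21.1 FPKM against at most 3.59 and 9.70 FPKM. Without that library the changes were -1.14 and -1.01. CRIM1 did not pass without replicate 5 at 36 h (adjusted p = 0.0514). ASAP1, a GTPase-activating protein for ARF, changed by -0.99 (limma adjusted p = 0.00407). AMOTL2, an angiomotin and a standard target of YAP, fell from 92.4, 91.7 and 96.8 FPKM to 39.2, 46.4 and 63.0 FPKM, by 0.93 on the log2 scale (SE 0.16, adjusted p = 0.00413 in limma).

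The best known targets, CCN1 (CYR61) and CCN2 (CTGF), which encode secreted matricellular proteins, gave a result that 1 library decided. They are named because of this and not by the rule for named genes. CCN1 was at 82.0, 83.4 and 99.3 FPKM at 24 h and at 48.8, 64.8 and 381 FPKM at 36 h. CCN2 was at 199, 178 and 168 FPKM at 24 h and at 93.7, 142 and 474 FPKM at 36 h. In both genes replicates 4 and 5 at 36 h lay under every library at 24 h, and replicate 6 lay far above them. With all libraries the log2 changes were 0.28 and 0.03, with standard errors of 0.71 and 0.54 (limma adjusted p = 0.765 and 0.968). Without replicate 6 at 36 h both were lower past the threshold, at -0.64 and -0.65 (limma adjusted p = 0.0215 and 0.0379). In that fit 8 of the 12 targets were lower and 0 higher (8 passed at an unadjusted p under 0.05), where 4055 of 14079 genes tested were lower and 1974 higher.

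That library was also the highest of its group in 9 of the 12 targets, 13 of the 23 upstream regulators and 0 of the 4 MCAT genes tested. It was highest in 7 of the 8 immediate-early genes measured, a list chosen after these values were seen. The share over all genes was not taken. Between replicate 6 and the other libraries at 36 h, AMOTL2 and the regulator AJUBA differed in the same direction as CCN1, with AJUBA at 23.7 FPKM against 15.3 and 18.2 FPKM. Among the members it had the lowest WWTR1, TEAD4 and VGLL2 and the highest VGLL4, TEAD1, TEAD2 and TEAD3 of the 36 h group. Without it WWTR1, TEAD4, VGLL2 and VGLL4 still passed, with log2 changes of 1.11, 0.71, 2.20 and 0.44. Whether the immediate-early genes and the YAP targets of this library share a cause was not tested.

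ANKRD1, a target of YAP that is also a muscle ankyrin-repeat protein, varied widely within both groups. It had 2358, 1982 and 996 FPKM at 24 h and 1170, 1421 and 1992 FPKM at 36 h, and it was named after its values were seen. Its log2 change of -0.16 did not exceed the spread (limma adjusted p = 0.713), and the sign depended on the setting.

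**Figure D5:**
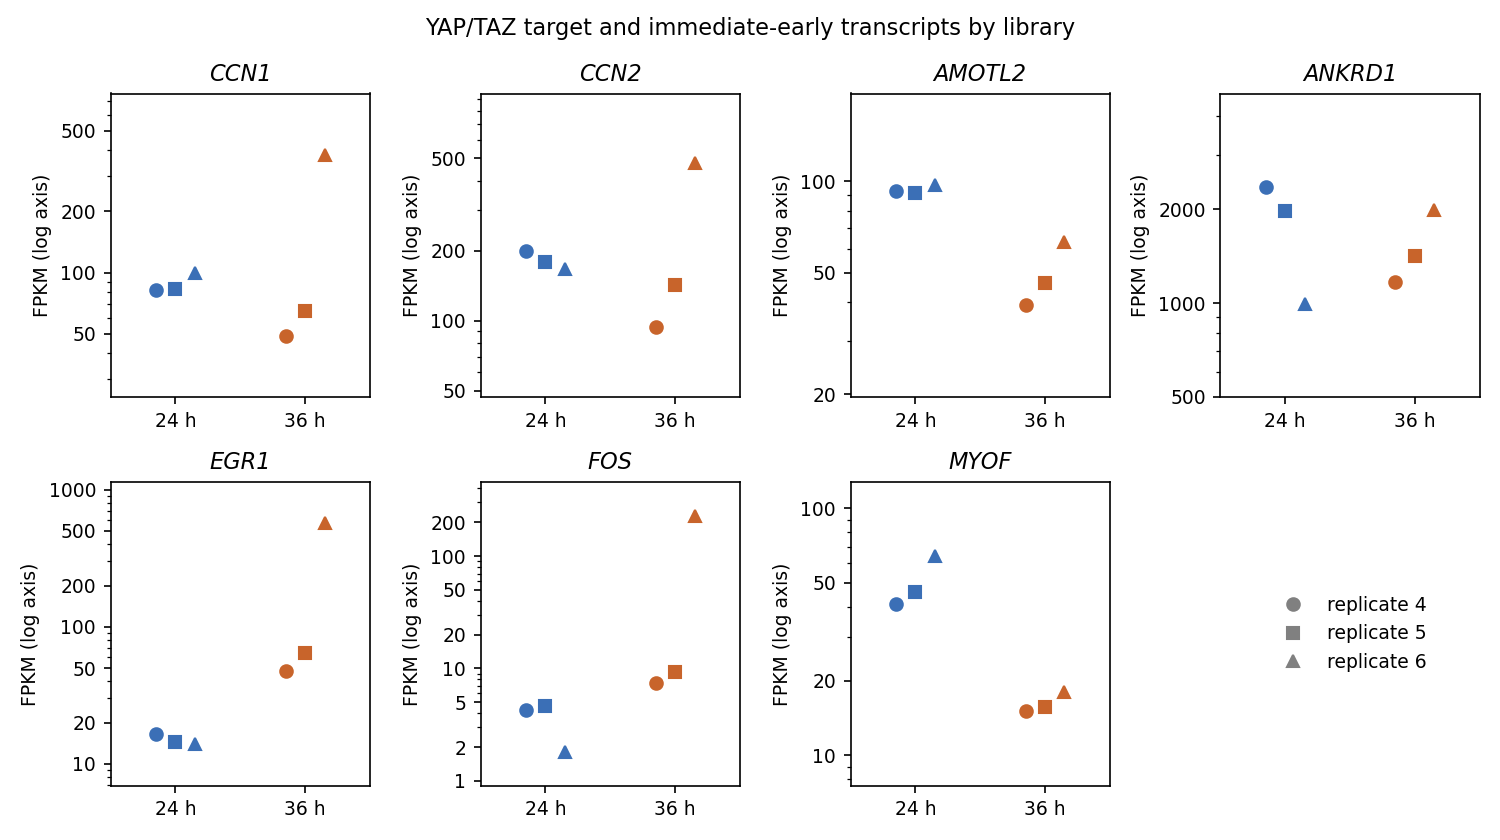
FPKM on log axes of CCN1, CCN2, AMOTL2, ANKRD1 and MYOF, targets of YAP and TAZ in other cells, and of the immediate-early genes EGR1 and FOS, in each library. Replicate 6 at 36 h (orange triangle) is the highest library at 36 h in every panel, with CCN1 at 381 FPKM and FOS at 228 FPKM.

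A short list of muscle genes whose promoters are known for an MCAT element held 6 genes, of which 4 were tested. By limma, adjusted over all genes, 3 were higher at 36 h and 0 lower (3 had an unadjusted p under 0.05, and limma voom on the whole fragments gave the same counts). Over all genes tested, 16.5% were higher and 34.4% lower. TNNT2, a thin-filament troponin, had 2194, 1783 and 749 FPKM at 24 h and 6820.4, 6501 and 6019 FPKM at 36 h, a log2 change of 2.17 (SE 0.38, adjusted p = 0.00422 in limma). ACTA1, the skeletal muscle actin, had a log2 change of 2.37 (SE 0.48, adjusted p = 0.00711 in limma). Without replicate 6 at 24 h these changes were 1.70 and 1.77. ACTC1, the cardiac actin that is also made in differentiating myoblasts, changed by 0.44 (limma adjusted p = 0.0408). Its call was lost with quantile normalization, with no filter and in 4 of the 6 fits that left out a library, without replicate 5 at 24 h (adjusted p = 0.0812) and without replicates 4, 5 and 6 at 36 h (0.0864, 0.133 and 0.0836). ACTA2, the smooth muscle actin, gave 0.05 and did not pass (limma adjusted p = 0.737). The actin genes are close in sequence, and how reads shared between genes were counted is not given in the sources used here, so their values are uncertain.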

How the data were processed

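RNA-seq libraries of PSCs at 24 h (3) and 36 h (3) of differentiation were grouped by the time in their labels. After paired-end sequencing and mapping to Sscrofa11.1, the authors counted reads with HTSeq and deposited an FPKM value for each gene and library. HISAT2 and StringTie are named in the study's methods, TopHat2 and Cufflinks in the submitters' processing notes. Strandedness and the handling of shared reads are not given in the sources used here. Of 25322 Ensembl identifiers, 11804 had a symbol. RefSeq positions on Sscrofa11.1 were used. Sequences were not used here.

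The main test was limma 3.58.1 under R 4.3.3 (lmFit and eBayes with a trend, two-sided) on log2(FPKM + 1). It covered the 14060 genes whose FPKM averaged 1 or more, with Benjamini-Hochberg adjustment over all of them and a threshold of 0.05. This scale understates the change of low genes. Tested on simulated data for this comparison, with 14060 genes of which 200 were changed by 1 on the log2 scale, the fit called 76.0% of the changed genes. Of its calls there, 4.40% were of unchanged genes. In the data 50.9% of the genes tested passed, so the share called there can differ from the simulated one. Whole fragments were recovered from the steps of the FPKM values, and 19543 genes, each above 0 in 3 or more libraries, gave whole numbers within 0.02. Percentiles are among the genes tested.

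Named genes were all members, LATS1, up to 5 rises and 5 falls that passed in each pathway list, all tested MCAT genes, and the genes that carry the checks of the labels. Genes named outside this rule are marked as such. The members and lists were chosen with earlier results of these data known. The alternatives changed the pseudocount (0.1 or 0.01), the filter (none, or an average of 5 FPKM), the scaling (median ratio or quantile), the trend in eBayes (left out), the design (replicate number as a block) or the input (voom on whole fragments), or left out each library in turn. Shares were compared by the exact permutation test over libraries and were also taken from whole fragments.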

Additional observations from a re-analysis of the deposited data

How the results depend on the processing

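The rises of WWTR1, TEAD4, VGLL2 and VGLL4 kept their direction and their call in all 15 alternatives. Across the fits that left out a library, 4 to 6 members, 4881 to 7268 of all genes, 8 to 16 upstream regulators (8 without replicate 5 at 36 h), 5 to 8 targets and 2 to 3 MCAT genes passed. With each library left out in turn, the difference in share ran from 6.63 to 9.13 points for TEAD4 and from -7.13 to -3.82 points for TEAD3. For the VGLL2 share it ran from 20.4 to 26.3 points. Set against the TEAD sum, WWTR1 differed by 22.6 to 27.8 points and VGLL2 by 23.3 to 28.7 points. TEAD1 gave -0.032 without replicate 6 at 24 h (range over the left-out libraries -0.032 to 0.18). ACTA2 gave -0.035 without replicate 4 at 24 h (range -0.035 to 0.14). CCN1 gave -0.64 without replicate 6 at 36 h (range -0.64 to 0.83). CCN2 gave -0.025 without replicate 6 at 24 h and -0.65 without replicate 6 at 36 h (range -0.65 to 0.52). ANKRD1 gave 0.011 with median-ratio scaling, 0.085 without replicate 4 at 24 h and 0.011 without replicate 4 at 36 h (range -0.54 to 0.085). The difference in the TEAD2 share, -0.49 points, was 0.15 without replicate 6 at 24 h (range -1.01 to 0.15) and 0.46 from fragments not divided by length. The cause of these turns was not tested.

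Deviations from the group mean correlated between libraries of the same number at 0.146, -0.016 and 0.178 for replicates 4, 5 and 6. Between libraries of different numbers the correlations ran from -0.197 to 0.105. These values do not decide whether the libraries were paired, and the main fit did not use the number as a pairing. A fit with the replicate block called 7034 genes and 5 members, with 12 upstream regulators, 7 targets and 3 MCAT genes.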
